A study of Homo sapiens with 2 samples.

Results

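Chemokines are small secreted proteins that steer leukocytes along concentration gradients by binding G protein-coupled receptors. Carcinoma cells can make several of them. The CXC chemokines with a glutamate-leucine-arginine (ELR) motif just before their first cysteines bind CXCR1 or CXCR2 and attract neutrophils. CXCL10 and CXCL11 lack that motif, are induced by interferons and draw activated T cells through CXCR3. NF-κB is a known activator of many chemokine genes, and several ELR chemokine mRNAs are short-lived.

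The genes described here were 10 chemokines taken by symbol, of the 60616 genes in the deposited tables, and each symbol matched exactly 1 row. They are 5 ELR chemokines (CXCL1, CXCL2, CXCL3, CXCL5 and CXCL8) and 5 interferon-induced or T cell chemokines (CXCL10, CXCL11, CXCL16, CCL5 and CCL20). They were read in HSC-3 cells, an established head and neck squamous carcinoma line, in 1 library of cells given 1 µM FIN56 for 48 h and 1 library of cells given 0.1% DMSO, the vehicle. FIN56 is a small molecule inducer of ferroptosis, a death by lipid peroxidation, and the study chose a sublethal dose. The labels give a time for the FIN56 library only. HSC-3 is 1 line, so no other carcinoma enters these values. With 1 library per condition there is no replicate check and no test between conditions, so every difference below is a difference between these libraries.

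The libraries held 70184517 (DMSO) and 73062209 (FIN56) expected counts. Marker genes were read for cell type only, and whether the line is HSC-3 rests on the labels. All 9 squamous carcinoma markers had an FPKM above 0 in both libraries, with summed FPKM of 5547 and 5032. Of 13 leukocyte markers 6 had no counts in either library, among them PTPRC, the pan-leukocyte phosphatase CD45. The summed leukocyte marker FPKM was 61.7 with DMSO and 30.7 with FIN56, most of it from CD68, a lysosomal protein, at 57.3 and 24.6. CD14, a lipopolysaccharide co-receptor, went the other way, from 3.62 to 5.15. The 5 fibroblast markers summed to 5.1 and 2.92, and the 3 endothelial markers to 0.08 in each library. Whether the CD68, CD14 and fibroblast marker levels bear on the chemokine values was not tested.

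By GENCODE release 44 on GRCh38, the 5 ELR chemokine genes lie close together on chromosome 4. CXCL8 lies at chr4:73740519-73743716 and CXCL1 at chr4:73869393-73871308, both on the plus strand. CXCL5 at chr4:73995642-73998677, CXCL3 at chr4:74036589-74038807 and CXCL2 at chr4:74097040-74099196 lie on the minus strand. CXCL10 (chr4:76021118-76023497) and CXCL11 (chr4:76033682-76041415) are neighbours farther along the same chromosome, on the minus strand. CXCL16 (chr17:4733533-4739928) and CCL5 (chr17:35871491-35880793) lie on the minus strand of chromosome 17, and CCL20 (chr2:227805739-227817564) on the plus strand of chromosome 2.

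The motif that names the ELR group can be seen in the coding sequence. The stretches below, of 45 bases each, come from the canonical transcripts of GENCODE release 44 (GRCh38), run 5′ to 3′ on the coding strand and lie in exon 2 of each gene. They are printed to show how the ELR group differs from the rest. Capitals mark the 9 bases just before the first of the paired cysteine codons, which in the ELR chemokines encode the motif.
CXCL1, chr4:73869677-73869721, plus strand: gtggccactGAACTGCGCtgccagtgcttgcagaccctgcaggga
CXCL2, chr4:74098870-74098914, minus strand: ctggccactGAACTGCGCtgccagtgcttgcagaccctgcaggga
CXCL3, chr4:74038361-74038405, minus strand: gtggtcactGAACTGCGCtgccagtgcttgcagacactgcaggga
CXCL5, chr4:73998277-73998321, minus strand: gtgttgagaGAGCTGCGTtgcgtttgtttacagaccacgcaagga
CXCL8, chr4:73741559-73741603, plus strand: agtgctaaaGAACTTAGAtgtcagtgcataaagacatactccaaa
CXCL10, chr4:76022765-76022809, minus strand: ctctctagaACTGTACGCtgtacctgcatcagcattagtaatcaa
CXCL11, chr4:76035290-76035334, minus strand: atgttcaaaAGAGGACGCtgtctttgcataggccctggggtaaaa
CXCL16, chr17:4738862-4738906, minus strand: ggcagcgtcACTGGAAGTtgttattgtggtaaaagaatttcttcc
CXCL1, CXCL2 and CXCL3 carry the same 9 bases. CXCL5 and CXCL8 encode the motif with partly other codons. CXCL10, CXCL11 and CXCL16 do not encode the whole motif there, although CXCL10 and CXCL11 share its arginine. Across their coding sequences CXCL2 was 93.5% identical to CXCL1 and 94.4% identical to CXCL3. CXCL8 was 52.4% identical to CXCL1 over the same kind of alignment.

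A feature that the choice of genes did not use is shared by their promoters. RefSeq promoter sequences (GRCh38.p14, from 250 bases before to 50 bases after the start) were matched for 8 of the 10 genes, all but CXCL16 and CCL5. The 9 letters GGAATTTCC, which lie within the commonest form of the NF-κB binding site, were found on either strand in 7 of these 8 promoters, against 0.461% of the 35116 promoters in the table. These letters were chosen after the promoter sequences had been read, so the contrast with all promoters is partly set by that choice. The RefSeq starts of CXCL2, CXCL3, CXCL8, CXCL11 and CCL20 lie inside the GENCODE gene bounds given above. Of the stretches below, only those of CXCL3 and CXCL11 fall within those bounds. The promoter of CCL20 lacks the 9 letters. The stretches below are printed to compare those sites, 70 bases each and wholly upstream of the RefSeq start, with capitals marking GGAATTTCC or its reverse complement and, in CXCL10, a match to GAAA, any 2 bases and GAAA, the core of an interferon-stimulated response element.
CXCL1, chr4:73869285-73869354, plus strand: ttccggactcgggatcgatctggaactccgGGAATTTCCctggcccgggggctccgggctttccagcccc
CXCL2, chr4:74099233-74099302, minus strand: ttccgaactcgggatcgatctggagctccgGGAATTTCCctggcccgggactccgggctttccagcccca
CXCL3, chr4:74038728-74038797, minus strand: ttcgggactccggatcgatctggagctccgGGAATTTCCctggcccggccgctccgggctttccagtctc
CXCL5, chr4:73998728-73998797, minus strand: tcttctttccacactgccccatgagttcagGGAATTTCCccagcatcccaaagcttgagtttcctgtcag
CXCL8, chr4:73740448-73740517, plus strand: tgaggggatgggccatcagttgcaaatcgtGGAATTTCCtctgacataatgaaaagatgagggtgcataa
CXCL10, chr4:76023658-76023727, minus strand: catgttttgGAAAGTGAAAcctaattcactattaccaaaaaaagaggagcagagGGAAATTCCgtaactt
CXCL11, chr4:76036106-76036175, minus strand: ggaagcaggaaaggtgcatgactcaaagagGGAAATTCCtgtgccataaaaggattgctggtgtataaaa
The match begins 78 bases upstream of the start in CXCL1 and CXCL3, 77 in CXCL2, 90 in CXCL5 and 91 in CXCL8. In CXCL11 it begins 75 bases upstream and in CXCL10 176 bases upstream. The fuller NF-κB consensus, which overlaps these letters, matched in 7 of the 8 promoters (11.3% of all promoters). It was absent from CXCL8 and present in CCL20. That interferon element core, searched on both strands, matched in CXCL10 alone among the 8, against 3.57% of all promoters. TGANTCA, the AP-1 motif, also searched on both strands, matched in CXCL8 and CXCL11, against 7.71% of all promoters. Aligned over the 250 upstream bases, the CXCL1 promoter was 81.4% identical to that of CXCL3 and 70.4% identical to that of CXCL2. A match is a run of letters and was not measured as binding.

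The level of each chemokine is given in FPKM, fragments per kilobase of effective gene length, scaled to library depth, which allows genes to be compared. CXCL1 (GROα) was the highest of the 10 in each library, with an FPKM of 126 with DMSO and 109.8 with FIN56. It ranked 774th and 915th among all genes by FPKM. CXCL8 (interleukin-8) followed at 60.8 and 49.5, and CXCL16, a transmembrane chemokine that is shed as a ligand of CXCR6, at 29.3 and 38.1. Those 3 genes made up 52.4%, 25.4% and 12.2% of the summed FPKM of the 10 chemokines with DMSO, and 50.7%, 22.9% and 17.6% with FIN56.

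CXCL2 (GROβ) had an FPKM of 12.5 with DMSO and 10.03 with FIN56, and CXCL3 (GROγ) 7.78 and 5.01. CCL20, which attracts CCR6-bearing dendritic cells and T cells, stood at 3.32 and 3.29. The other 4 chemokines lay below an FPKM of 1 in both libraries. Within counting error, the first 6 genes in this order were separate from their neighbours in each library.

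CXCL11 had an FPKM of 0.19 with DMSO and 0.21 with FIN56, CCL5 (RANTES) 0.13 and 0.26, and CXCL10 0.11 and 0.13. These values rested on 8 to 21 expected counts each, and their 95% counting intervals overlapped, so CXCL11, CCL5 and CXCL10 could not be ranked at this depth. CXCL5 had 1 expected count with DMSO and 0 with FIN56. The exact 95% Poisson interval of the 0 in the FIN56 library reaches 3.69 counts, so no ratio is given for CXCL5. No FPKM bound is given either, since its DMSO FPKM of 0.01 is rounded and rests on 1 count. CXCL5 has the κB letters printed above, as CXCL1 and CXCL3 do, and was at the detection floor. Whether these letters bear on its level was not tested.

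**Figure D1:**
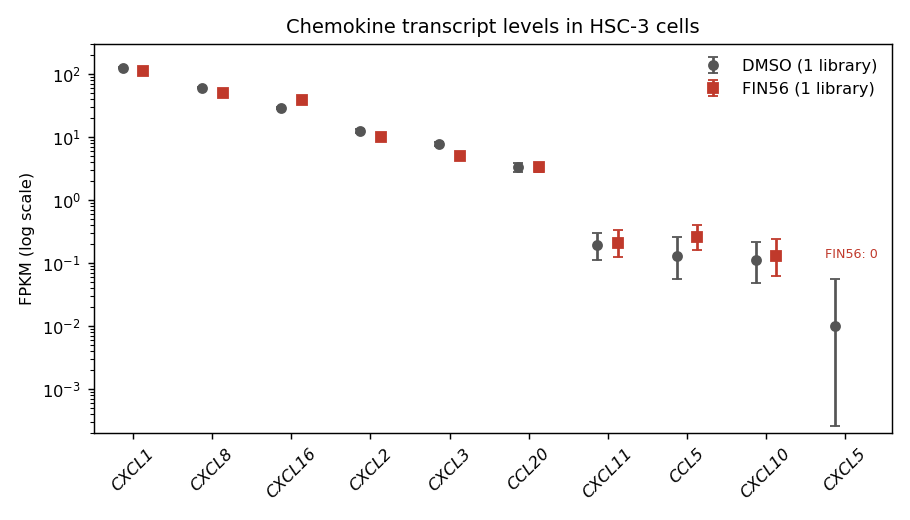
FPKM of the 10 chemokines in the DMSO library (grey circles) and the FIN56 library (red squares) of HSC-3 cells on a log axis, ordered by the DMSO level; bars are exact 95% Poisson intervals of the counts, rescaled to FPKM. CXCL1 leads at 126 and 109.8, 4 genes lie below an FPKM of 1, and CXCL5 has no FIN56 count to plot.

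The 4 expressed ELR chemokines among the 10 genes were all lower in the FIN56 library. The median FPKM ratio of FIN56 over DMSO was 0.810 over the 4 genes with a nonzero FPKM in each library (-0.30 on the log2 scale), and 4 of 4 ratios were below 1. Their summed FPKM was 207 with DMSO and 174 with FIN56. The median log2 FPKM ratio of all 17372 genes that had 10 or more expected counts in each library was 0.013. The ELR median lay below this centre, and 30.7% of these genes had a lower ratio than CXCL1, the highest of the 4. The 6 chemokines outside the 10 that met this minimum had a median log2 FPKM ratio of -0.29. The 10 members were chosen with earlier results of these data known. CXCL6, an ELR chemokine outside the 10, had an FPKM ratio of 0.898 and a count interval that held 1 (0.728 to 1.14).

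CXCL3 had the lowest ratio. It went from 530 expected counts with DMSO to 355 with FIN56, an FPKM ratio of 0.644. The ratio of its counts per library total was 0.643, with a 95% interval of 0.561 to 0.737. These intervals are exact Clopper-Pearson intervals of the FIN56 share of the counts, and cover counting error only. With 1 library per condition, they hold no variation between cultures or libraries. The reads carried no molecular identifiers and may not be independent, so the intervals may be too narrow.

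CXCL2 followed, with 840 expected counts under DMSO and 698 under FIN56. Its FPKM ratio was 0.805, and its count ratio of 0.798 had an interval of 0.721 to 0.884. CXCL8 had 6429 and 5483 expected counts, an FPKM ratio of 0.815 and a count ratio of 0.819 (0.790 to 0.849). CXCL1 was nearest to 1, with 9373 and 8545 expected counts, an FPKM ratio of 0.874 and a count ratio of 0.876 (0.850 to 0.902). The intervals of all 4 lay below 1. Of all genes with 10 or more expected counts in each library, 31.0% had an interval below 1 and 31.3% above.

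Within the group, CXCL3 stood below the other 3 genes by more than counting error. Over the 6 pairs of these 4 genes, the count ratio of CXCL3 was 0.735 of that of CXCL1, with an exact 95% interval of 0.638 to 0.845. Against CXCL8 this quotient was 0.785 (0.681 to 0.905), and against CXCL2 0.806 (0.679 to 0.957). CXCL8 and CXCL1 were also apart, at 0.935 (0.893 to 0.980). The quotients of CXCL2 against CXCL1 (0.911, 0.820 to 1.01) and of CXCL2 against CXCL8 (0.974, 0.874 to 1.09) had intervals that held 1. The 6 intervals were not adjusted for their number. In level, the FPKM of CXCL1 was 16.1-fold that of CXCL3 with DMSO and 21.9-fold with FIN56, whereas CXCL1 over CXCL2 was 10.1 and 10.9.

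CXCL1, CXCL2 and CXCL3 are 90.7% to 94.4% identical in coding sequence, so some reads can be hard to place among them. Of the 50-base windows of the CXCL2 transcript, 5.63% also occur in CXCL1 and 5.07% in CXCL3, while 0.585% of those of CXCL3 occur in CXCL1. At 100 bases these 3 transcripts shared 0 windows. Their expected counts were close to whole, with fractional parts that cancel between genes: CXCL2 and CXCL3 together summed to 1370 in the DMSO library, and all 3 genes to 9598 in the FIN56 library. Summed, the 3 genes had 10743 and 9598 expected counts, a count ratio of 0.858 (0.835 to 0.882). CXCL2 and CXCL3 without CXCL1 gave 0.738 (0.681 to 0.801).

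**Figure D2:**
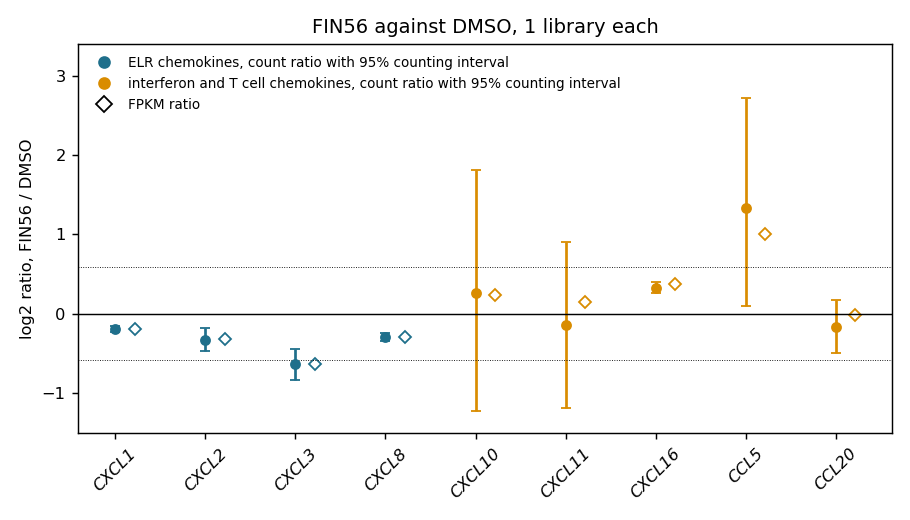
log2 ratio of FIN56 over DMSO for the 9 chemokines with a nonzero FPKM in each library. Filled circles are ratios of expected counts per library total with 95% counting intervals, open diamonds are FPKM ratios, and dotted lines mark 1.5 and 1/1.5. The 4 ELR chemokines lie below 0, CXCL16 and CCL5 lie above it, and the intervals of CXCL10, CXCL11 and CCL20 include it.

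The interferon-induced and T cell chemokines lay on both sides of 1. Their median FPKM ratio was 1.18 over 5 genes (0.24 on the log2 scale), with 4 ratios above 1 and 1 below. That median is the ratio of CXCL10, which rested on 8 and 10 expected counts. By count ratio 3 of the 5 were above 1 and 2 below, since CXCL11 changed sides. Their summed FPKM was 33.1 with DMSO and 42.0 with FIN56. CXCL16 made up 88.7% and 90.7% of those sums, so the sum is in the main the level of CXCL16.

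CXCL16 was the only well-counted gene of this group that was higher with FIN56. It had 3245 expected counts with DMSO and 4250 with FIN56, an FPKM ratio of 1.30 and a count ratio of 1.26 (1.20 to 1.32). In the DMSO library CXCL8 was 2.07-fold above CXCL16 by FPKM, and in the FIN56 library 1.30-fold. CXCL16 overlaps MED11 and ZMYND15 on the opposite strand. MED11, a Mediator subunit, had 1439 and 741 expected counts, the opposite direction to CXCL16, and per the labels the library kit was a stranded one, but whether the counting used it is not given in the sources used here.

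CCL5, which attracts T cells and monocytes, had 8 expected counts with DMSO and 21 with FIN56. The FPKM ratio was 2 and the count ratio 2.52, with an interval of 1.07 to 6.58 that nearly reaches 1. The deposited FPKM carries 2 decimals, and the effective length of CCL5 implied by the files was 1.26-fold larger with FIN56. An lncRNA on the opposite strand of CCL5 had 1 and 6 expected counts. CCL20 had 160 and 149 expected counts, and its count ratio of 0.895 had an interval of 0.711 to 1.13. Its FPKM ratio was 0.991.

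CXCL10 and CXCL11, the CXCR3 ligands, were barely detected. CXCL10 had 8 expected counts with DMSO and 10 with FIN56, with a count ratio of 1.20 and an interval of 0.427 to 3.50. CXCL11 had 18 and 17, a count ratio of 0.907 (0.439 to 1.87) and an FPKM ratio of 1.11, so its direction depends on the measure. CXCL9, the remaining CXCR3 ligand, had 0 and 1. A difference in these genes smaller than those intervals was not detectable at this depth.

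Against a fold of 1.5, CXCL3 alone of the 9 chemokines with a ratio was at 1/1.5 or less, and CCL5 alone at 1.5 or more. The other 7 lay between. Of all 24454 genes whose FPKM was nonzero in each library, 17.3% were at 1/1.5 or less and 14.7% at 1.5 or more, so 1 of 9 in each direction is near the background. Of the 17372 genes that had 10 or more expected counts in each library, 11.1% were at 1/1.5 or less and 7.62% at 1.5 or more. Among the 7 chemokines that met this minimum, 1 (CXCL3) and 0 were. CCL5 and CXCL10 did not meet it. By the counting interval, 4 of these 7 lay wholly below 1 and 1 wholly above, where 31.0% and 31.3% of the 17372 genes did. The nearest members on either side of the lower bound were CXCL3 at 0.644 and CXCL2 at 0.805.

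**Figure D3:**
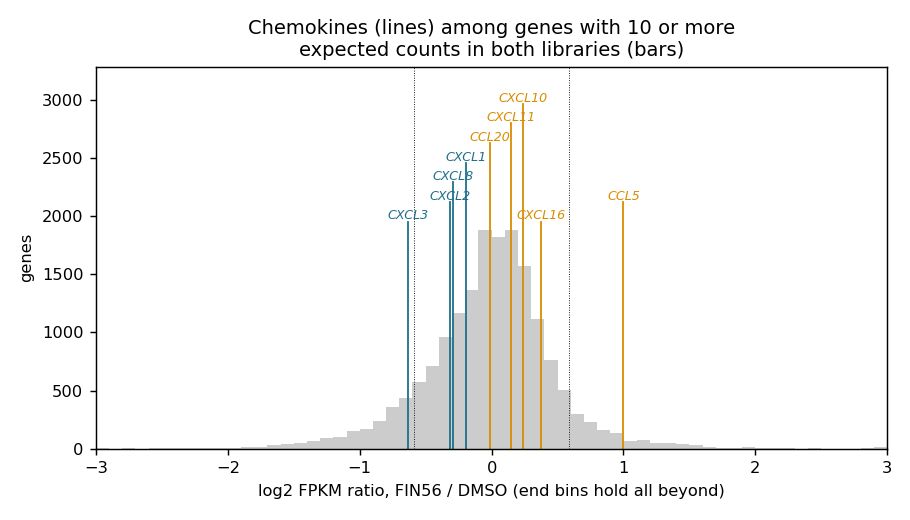
Histogram of log2 FPKM ratios (FIN56 over DMSO) of the 17372 genes that had 10 or more expected counts in each library, with a line for each of the 9 chemokines (blue, ELR; orange, interferon-induced and T cell) at staggered heights for legibility. Of these genes, 9.49% have a lower ratio than CXCL3, 30.7% a lower ratio than CXCL1 and 84.2% a lower ratio than CXCL16; CCL5 and CXCL10 have under 10 DMSO counts and are not among the bars.

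Most of the other 34 chemokine genes were silent or nearly so. In both libraries 19 of them had no counts, among them CXCL12, PF4 and PPBP. Of the 10 with a nonzero FPKM in each, 1 was at 1.5 or more (PF4V1, 1 and 4 expected counts) and 1 at 1/1.5 or less (CXCL14, 21 and 10). Of all genes with a ratio, 14.7% and 17.3% were, so these counts are near the background. PF4V1 and CXCL14 were named after their values were seen. The 6 with 10 or more expected counts in each library had log2 FPKM ratios from -1.08 to -0.063, with a median of -0.29. The ELR median was -0.30. Of these 6, 0 had an interval wholly above or below 1. Over all genes with that minimum, 31.3% lay wholly above 1 and 31.0% wholly below. CCL28, a mucosal chemokine, had the highest FPKM of these, at 4.22 with DMSO and 4.04 with FIN56. CXCL6, a further ELR chemokine, had 169 and 160 expected counts, with an FPKM ratio of 0.898 and a count interval of 0.728 to 1.14. CCL2, which attracts monocytes, had 65 and 46, with an FPKM ratio of 0.683 and an interval of 0.456 to 1.01. XCL1 had an FPKM of 1.41 and 1.3, and shares reads with its copy XCL2.

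Of 23 chemokine receptor genes 9 had no counts in either library, including CXCR1, CCR6 and CXCR4. CXCR2, the main ELR receptor, had 27 and 29 expected counts, and CXCR6, the receptor of CXCL16, 33 and 41. Both were named for their ligands here. Of the 11 receptor genes with a nonzero FPKM in each library, 3 were at 1.5 or more and 2 at 1/1.5 or less, where 14.7% and 17.3% of all genes with a ratio were. ACKR3, a scavenging receptor that binds CXCL11 and CXCL12, went from an FPKM of 2.04 to 0.82, and its count ratio was 0.460 (0.365 to 0.577). CCRL2, an atypical receptor without chemokine signalling, went from 0.8 to 1.47 (count ratio 1.82, 1.39 to 2.39). CXCR5 had an FPKM of 5.08 and 7.46, and CCR10 of 0.64 and 0.76. The counts of both were not whole numbers.

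The 7 proteases that cut chemokines held 1 gene at 1.5 or more and 1 at 1/1.5 or less. Over all genes with 10 or more expected counts in each library, 7.62% and 11.1% were, so these counts are near the background. ADAM10, the main sheddase of CXCL16, had an FPKM of 54.3 with DMSO and 67.4 with FIN56 (count ratio 1.27, 1.24 to 1.30), and ADAM17 had 24.8 and 26.6. DPP4, which trims CXCL10, CXCL11 and CCL5, had 62 and 171 expected counts, an FPKM ratio of 2.96 and a count ratio of 2.65 (1.97 to 3.60). MMP13 had an FPKM ratio of 0.659 and a count ratio of 0.689 (0.534 to 0.887), and the FPKM ratios of MMP9 and MMP2 were 0.754 and 0.855. MMP1, a collagenase, was the most abundant of the list at an FPKM of 486 and 479.

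The NF-κB list, fixed for its place upstream of the ELR chemokines, held 15 genes, of which 0 reached a fold of 1.5 in either direction. The median log2 FPKM ratio was -0.032. Over all genes with 10 or more expected counts in each library, 11.1% were at 1/1.5 or less and 7.62% at 1.5 or more. By counting interval 7 of the 15 lay below 1 and 4 above, against 31.0% and 31.3% of those genes. NFKBIA, the inhibitor IκBα and itself an NF-κB target, had an FPKM of 140.3 with DMSO and 116 with FIN56. RELA, the p65 subunit, had the highest FPKM ratio of the list, 1.39, with a count ratio of 1.32 (1.28 to 1.35). NFKB2 had the lowest, 0.722, with a count ratio of 0.808 (0.773 to 0.844). The FPKM ratio also carries the effective length, which differed between libraries for such genes. By FPKM ratio NFKB1 stood at 0.836, CHUK at 1.15 and MAP3K14 at 1.18.

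Cytokines and receptors that induce chemokines were expressed, and 0 of the 12 listed reached a fold of 1.5. Of all genes with 10 or more expected counts in each library, 11.1% were at 1/1.5 or less and 7.62% at 1.5 or more. IL1B had an FPKM of 215 with DMSO and 266 with FIN56, and IL1A 127 and 126. TNF had 16.2 and 13.6, an FPKM ratio of 0.840 and a count interval of 0.785 to 0.900. IL17RC, a subunit of the interleukin-17 receptor, had an FPKM ratio of 0.700 and a count ratio of 0.614 (0.527 to 0.714), and IL17RA had an FPKM ratio of 1.19. IL1RAP had 1.26, and IL1RN, the receptor antagonist, 0.816. The list as a whole had a median log2 FPKM ratio of 0.098.

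On the interferon side, the 16 genes of the receptors, kinases and factors held 0 beyond a fold of 1.5, with a median log2 FPKM ratio of 0.021. Among all genes with 10 or more expected counts in each library, 11.1% were at 1/1.5 or less and 7.62% at 1.5 or more. IRF7 had an FPKM ratio of 0.762, TYK2 0.799 and IRF9 1.20. SOCS1 had 0.815, IRF3 0.863 and IFNAR1 1.15. The most abundant were IRF1 at an FPKM of 51.9 and 56.1 and IFNGR1 at 48.5 and 50.9. Of 7 interferon ligand genes, IFNG and all 3 listed IFNL genes had no counts in either library. IFNE, an epithelial type I interferon, had 258 expected counts with DMSO and 885 with FIN56, an FPKM ratio of 3.30 and a count interval of 2.87 to 3.80. CXCL10 and CXCL11 are known interferon targets, and their values beside this are given above.

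**Figure D4:**
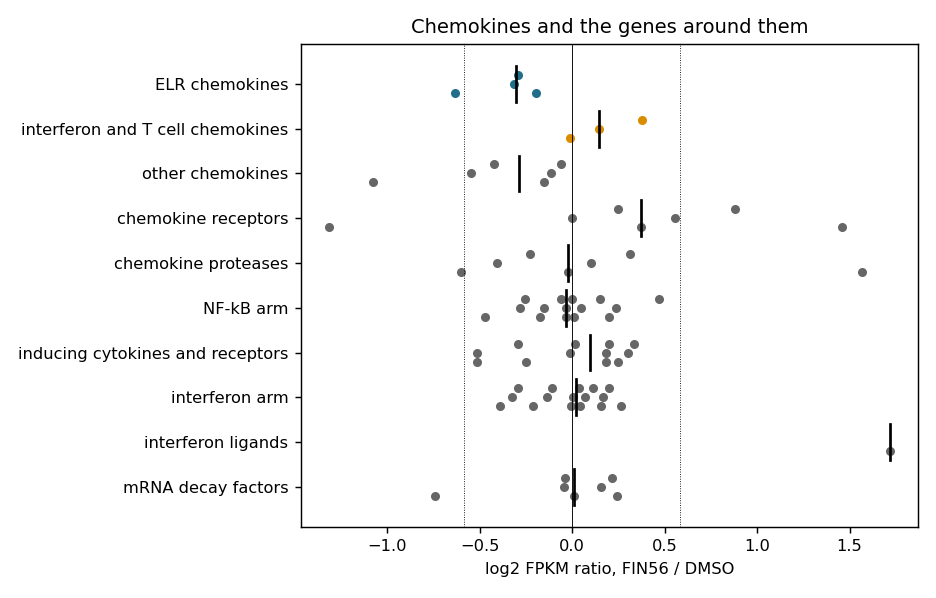
log2 FPKM ratio of FIN56 over DMSO for every gene that had 10 or more expected counts in each library, by list, with list medians as black bars and dotted lines at 1.5 and 1/1.5. The ELR chemokines lie left of 0 with a median of -0.30, and so do the other chemokines, with a median of -0.29. The NF-κB, cytokine and interferon arm genes lie within the dotted lines, and CCL5, CXCL10 and CXCL5 have too few counts to be plotted.

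The chemokines also differed in how often their 3′ untranslated regions hold the pentamer ATTTA, the core of the AU-rich element through which such mRNAs are degraded. CXCL2 had 10 copies in 716 bases, CXCL3 7 in 673, CXCL1 6 in 772, CXCL8 9 in 1252 and CXCL5 11 in 1995. CCL20 had 3 in 473. CXCL10, CXCL11 and CXCL16 had 1 each and CCL5 had 0. Per 1000 bases the 5 ELR chemokines held 5.51 to 14.0, against a median of 1.76 over 17017 canonical coding transcripts with at least 200 bases of this region. A density as high as that of CXCL2 was found in 0.194% of those transcripts, one as high as that of CXCL5 in 6.46% and one as high as that of CCL20 in 4.06%. CXCL10 was at 1.23 per 1000 bases, a density reached by 60.3%.

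**Figure D5:**
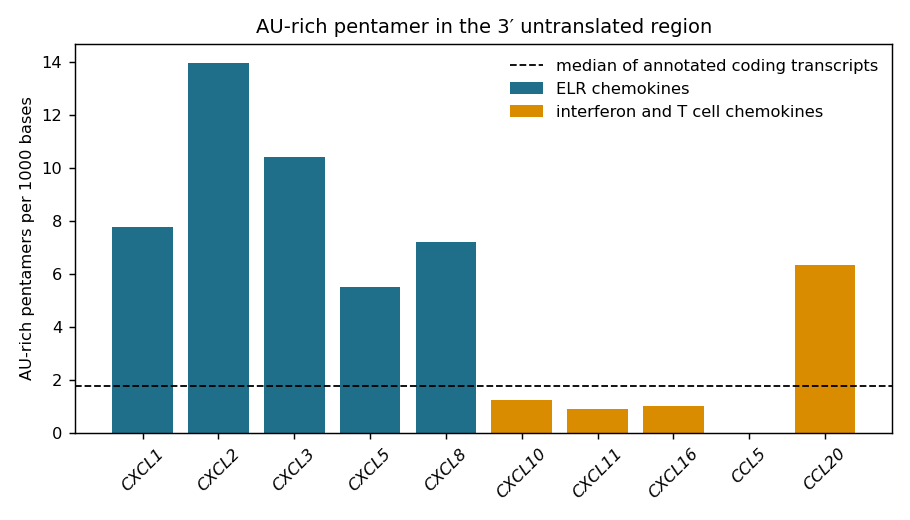
Copies of the pentamer ATTTA per 1000 bases of 3′ untranslated region in the canonical transcript of each of the 10 chemokines, with the median of 17017 coding transcripts dashed at 1.76. The 5 ELR chemokines and CCL20 stand above the line, from 5.51 to 14.0, and CXCL10, CXCL11, CXCL16 and CCL5 lie below it.

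The list of 7 factors that act on such mRNAs held 1 gene at 1/1.5 or less and 0 at 1.5 or more. Among all genes with 10 or more expected counts in each library, 11.1% and 7.62% were, so these counts are near the background. ZC3H12A (regnase-1), an endonuclease that cleaves inflammatory mRNAs, had 6399 expected counts with DMSO and 3841 with FIN56, an FPKM ratio of 0.597 and a count ratio of 0.577 (0.554 to 0.600). ZFP36, the decay factor tristetraprolin, had an FPKM of 12.01 and 13.4, and ZFP36L1 of 57.0 and 67.5. ELAVL1, which stabilizes AU-rich mRNAs, had 44.6 and 51.7. HNRNPD and KHSRP, at FPKM ratios of 1.01 and 0.969, were the most abundant of the list. Whether any of these levels bears on the ELR chemokine values was not tested.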

How the data were processed

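RNA-seq of HSC-3 cells was analysed from the deposited tables, 1 library per condition. By the study's methods, described for tumor samples, and the submitters' processing notes, reads were aligned with STAR 2.6.1a to GRCh38 and summarised by gene in RSEM 1.3.1. In the deposited tables, expected counts are RSEM estimates without normalization, rounded here to whole numbers for intervals. The deposited FPKM and TPM are the authors' values scaled for depth and effective length, to 2 decimals. The log2 values deposited by the authors are DESeq2 1.26.0 rlog values. A ratio is the FIN56 FPKM over the DMSO FPKM, with no pseudocount, for genes above 0 in both libraries. The fold of 1.5 is the study's FPKM threshold. The 3583 genes at 1.5 or more here exceed the number the study reported, so its full selection was not reproduced. Totals of 70184517 and 73062209 counts set the precision, and intervals at 95% cover counting error only. Interval steps were tested on simulated data.

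The members and lists were chosen with earlier results of these data known. From each list, genes with at least 100 expected counts over both libraries were named, up to 6 by size of ratio and 2 by level. Annotation was GENCODE release 44 (GRCh38), and promoters RefSeq GRCh38.p14. Amino acid sequences were not used here. Alternatives were TPM, rlog, library totals, edgeR 4.0.16 TMM and DESeq2 1.42.0 size factors, pseudocounts of 0.1 and 1 FPKM, minimum levels, a fold of 2, and CXCL1, CXCL2 and CXCL3 as 1 gene. Python 3.11.15 with scipy 1.17.1 and Biopython 1.88, and R 4.3.3, were used.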

Additional observations from a re-analysis of the deposited data

How the results depend on the processing

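No paired analysis was possible because only 1 library of either condition was analysed here, and no replicate could be left out. The median log2 ratio of the ELR chemokines, -0.30, became -0.10 with the rlog values, which draw the libraries together by construction, and stayed negative under every alternative run. That of the interferon-induced and T cell chemokines, 0.24, stayed positive, down to 0.0046 with rlog. The count of members at 1/1.5 or less, 1, became 0 with rlog, with a pseudocount of 1 FPKM, at a fold of 2, and with CXCL1, CXCL2 and CXCL3 as 1 gene. The count at 1.5 or more, 1, became 0 with rlog, with a pseudocount of 1 FPKM, with a minimum FPKM of 1 and with a minimum of 10 expected counts, and rests on CCL5. Of 63 values of single chemokines under alternatives, 58 moved by no more than a set distance on the log2 scale. That distance ran from the midpoint of the gene's 95% counting interval to its bounds. The other 5 came from rlog. CXCL11 changed sign under 4 alternatives and CCL20 under 1, so neither has a settled direction. The lowest and highest ratios of CXCL3 were 0.642 and 0.889, and those of CXCL16 1.11 and 1.33. Depth limits CXCL5, CXCL10, CXCL11 and CCL5.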
